A study of Mus musculus with 6 samples.

Results

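The 36 genes described here act at the G2/M boundary, in mitosis and in cytokinesis. They were taken by gene symbol, not by a rule on their measured values, although earlier results of these data were known when they were chosen. All 36 were in the table of 31017 genes and passed the filter on low counts that left 12076 genes for testing. RNA was taken from 4T1, a mammary carcinoma line of the mouse, grown in gels of collagen I. The 3 ETV4 KO samples had received Cas9 and guide RNAs against Etv4, the gene of a PEA3-type ETS transcription factor, and the 3 control samples had received Cas9 and control guides. Both groups were nucleofected and then embedded at 100000 cells per ml in collagen, for which the labels give 1.2 or 2.4 mg per ml without assigning either to a sample, and the gels were digested with collagenase I before extraction. All 3 ETV4 KO libraries carry 1 library code, whose meaning the sources used here do not give, so whether they come from 1 clone is unknown. Nothing says that the samples within a group came from separate cultures, and the p-values therefore measure a spread that may be technical.

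Cells enter mitosis when cyclin-dependent kinase 1, bound to A- and B-type cyclins, is switched on by CDC25 phosphatases. Aurora and Polo-like kinases then build the spindle, the spindle checkpoint holds the anaphase-promoting complex until the kinetochores are attached, and kinesins, anillin and PRC1 organise the midzone and the cleavage furrow. The mRNAs of these genes accumulate late in the cell cycle. Their promoters are known for CCAAT boxes, which NF-Y binds, and for a cell cycle homology region (CHR), which is read by complexes built on MuvB proteins: DREAM, which represses, and B-Myb-MuvB with FOXM1, which activates. In a mammary carcinoma culture the same transcripts serve as markers of proliferating cells.

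The promoters of 6 members are shown because they hold these elements in different numbers and because the genes did not all move the same way in ETV4 KO cells. Each stretch runs 5′ to 3′ on the gene's own strand from 170 bases before the RefSeq start to 30 bases from it, in build GRCm38.p6. Capitals mark CHR letters (TTTGAA or TTCGAA) and CCAAT boxes (CCAAT), on either strand, so that TTCAAA and ATTGG are the same elements read on the other strand. The pair of B-type cyclins comes first, Ccnb1 (chr13:100786457-100786656, minus strand) and Ccnb2 (chr9:70421525-70421724, minus strand).
Ccnb1: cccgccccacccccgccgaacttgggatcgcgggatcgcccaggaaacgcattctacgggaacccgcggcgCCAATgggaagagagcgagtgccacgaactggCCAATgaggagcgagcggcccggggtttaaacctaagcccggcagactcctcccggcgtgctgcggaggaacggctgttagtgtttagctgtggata
Ccnb2: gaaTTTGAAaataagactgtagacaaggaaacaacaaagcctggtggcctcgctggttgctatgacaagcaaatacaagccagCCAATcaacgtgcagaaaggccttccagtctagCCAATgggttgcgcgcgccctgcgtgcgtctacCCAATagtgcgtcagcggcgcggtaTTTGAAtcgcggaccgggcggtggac
The next 3 belong to the genes with the highest fold changes, namely Ccnf (chr17:24251380-24251579, minus strand), Cdc25b (chr2:131186778-131186977, plus strand) and Mki67 (chr7:135716350-135716549, minus strand). The last is Kif23 (chr9:61946770-61946969, minus strand), which was lower in ETV4 KO cells.
Ccnf: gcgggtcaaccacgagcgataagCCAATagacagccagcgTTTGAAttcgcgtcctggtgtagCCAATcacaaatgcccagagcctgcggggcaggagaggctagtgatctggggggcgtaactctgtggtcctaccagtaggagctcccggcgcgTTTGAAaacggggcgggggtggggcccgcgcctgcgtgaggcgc
Cdc25b: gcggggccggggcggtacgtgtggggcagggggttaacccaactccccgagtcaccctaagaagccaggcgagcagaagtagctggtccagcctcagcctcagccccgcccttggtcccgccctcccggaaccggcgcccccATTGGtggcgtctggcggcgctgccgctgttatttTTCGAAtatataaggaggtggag
Mki67: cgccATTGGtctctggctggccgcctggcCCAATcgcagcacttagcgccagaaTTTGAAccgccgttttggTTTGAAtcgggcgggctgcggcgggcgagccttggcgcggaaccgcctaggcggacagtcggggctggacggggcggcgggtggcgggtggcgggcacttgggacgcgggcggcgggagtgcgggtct
Kif23: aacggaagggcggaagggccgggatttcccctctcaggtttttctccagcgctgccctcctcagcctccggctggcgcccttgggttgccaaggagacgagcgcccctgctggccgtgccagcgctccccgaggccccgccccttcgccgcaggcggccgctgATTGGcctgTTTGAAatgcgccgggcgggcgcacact
The stretch of Ccnb2 held 2 CHR matches and 3 CCAAT boxes and that of Ccnb1 held 0 and 2. Ccnb2 mRNA was lower and Ccnb1 mRNA higher in ETV4 KO cells. Only TTTGAA and TTCGAA were counted as CHR, so that 0 matches does not mean that Ccnb1 lacks the element in another spelling. Ccnf and Mki67 each held 2 of both elements, and Cdc25b and Kif23 each held 1 of both.

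The RefSeq table held promoters for 30 of the 36 members; Ccna2, Cdc25c, Aurkb, Kif20a, Tpx2 and Foxm1 had none. In the window from 250 bases before to 50 bases after the start, 24 of the 30 members (80%) held a CHR match, against 19.4% of the 27025 genes with a promoter in the table and 13.7% of the 9293 tested genes with one. A CCAAT box was present in 24 of the 30 members (80%), against 37.9% of all promoters and 39.2% of those of tested genes. Both elements together were found in 21 of the 30 members (70%), against 5.98% of the promoters of tested genes. Matches occurred in members of either direction. Of the 24 members with a CHR match 19 were called higher, 2 lower and 3 neither way, with a median log2 fold change of 0.26, and of the 6 without one 3 were called higher, 1 lower and 2 neither way, with a median of 0.18. An ETS core (CCGGAA, either strand) was present in 11 of the 30 members (36.7%), against 15.2% of all promoters and 29.9% of those of tested genes. Promoters and start sites from an annotation can miss the start used in 4T1 cells, and a match is a description of letters, not a bound site. Spellings of the CHR other than TTTGAA and TTCGAA were not searched, so members without a match may still hold one.

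Library totals were 24356286 to 29042569 counts in ETV4 KO and 22355015 to 26669985 counts in control samples, and levels are given as CPM, the count scaled to library size by the TMM method. Etv4 (chromosome 11, 101769742 to 101785371) had 2503, 2217 and 2207 counts in ETV4 KO samples and 3098, 3648 and 3030 counts in control samples, a log2 fold change of -0.58 (edgeR SE 0.036, adjusted p = 1.03e-14). The other expressed genes in its 10 Mb bin had a median of -0.46 on the same scale, and relative to that bin Etv4 had -0.11 (edgeR adjusted p = 0.0074), so that much of its difference was shared by its neighbours. Counts over the whole gene leave the state of the protein unknown. Of 10 mammary epithelial markers 9 were detected well enough to be tested, with sums of 3695 to 3842 CPM in ETV4 KO and 5331 to 5470 CPM in control samples; 7 fell and 2 rose. Of 8 fibroblast markers 1 was tested, Pdgfra, and the list summed to 12.7 to 14.4 CPM in ETV4 KO and 10.1 to 11.9 CPM in control samples, with Lum and Thy1 at 0. Of 8 leukocyte markers 1 was tested, Cd68, and the list summed to 9.24 to 11.3 CPM in ETV4 KO and 10.0 to 10.7 CPM in control samples, with Cd3e, Adgre1 and Lyz2 at 0. Endothelial, adipocyte, muscle and pericyte, and erythroid lists each summed to at most 1.2 CPM in any library, with Emcn, Plin1, Lep, Des and Hbb-bt at 0. The part of these cell types in the differences was not tested.

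In ETV4 KO cells most of the 36 genes were moderately higher. At an edgeR quasi-likelihood adjusted p under 0.05, 27 rose, 4 fell and 5 did not pass. Over all 12076 tested genes 35.0% were called higher, 36% lower and 71.1% in either direction, so that a call as such was common in this comparison, while 75% of these genes were called higher. The median log2 fold change of the 36 was 0.26, beside -0.0038 for all tested genes. The largest rise was 1.76-fold and the largest fall was to 0.828 times the control level, so that 0 of the 36 reached a 2-fold difference. Tested against a fold change of 1.5 (edgeR glmTreat), 3 of the 36 were called higher (Ccnf, Cdc25b and Mki67) and 0 lower, where 6.09% of all tested genes were called higher, 7.86% lower and 13.9% in either direction. The members that rose most were Ccnf, Cdc25b, Mki67, Kif4, Anln and Prc1; the 4 that fell were Ccnb2, Birc5, Aurkb and Kif23; and Cdc20, Ttk, Mad2l1, Aurka and Nek2 did not pass. In a bulk sample, more cells in G2 or mitosis and more RNA per such cell cannot be told apart.

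Summed over the 36 genes, the libraries held 7131, 6864 and 6980 CPM in ETV4 KO samples 1 to 3, against 5756, 5598 and 5721 CPM in control samples 1 to 3. Mki67, Top2a and Anln had the highest CPM of the 36 genes in both groups. For 28 members the 3 ETV4 KO values lay above the 3 control values, for 4 they lay below, and for 4 the groups overlapped; among all tested genes the groups did not overlap in 72.7%, 36.1% with ETV4 KO above and 36.6% with ETV4 KO below. The SEs of the members' log2 fold changes lay between 0.031 and 0.055, and each of the 36 genes had at least 576 counts in every library.

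**Figure D1:**
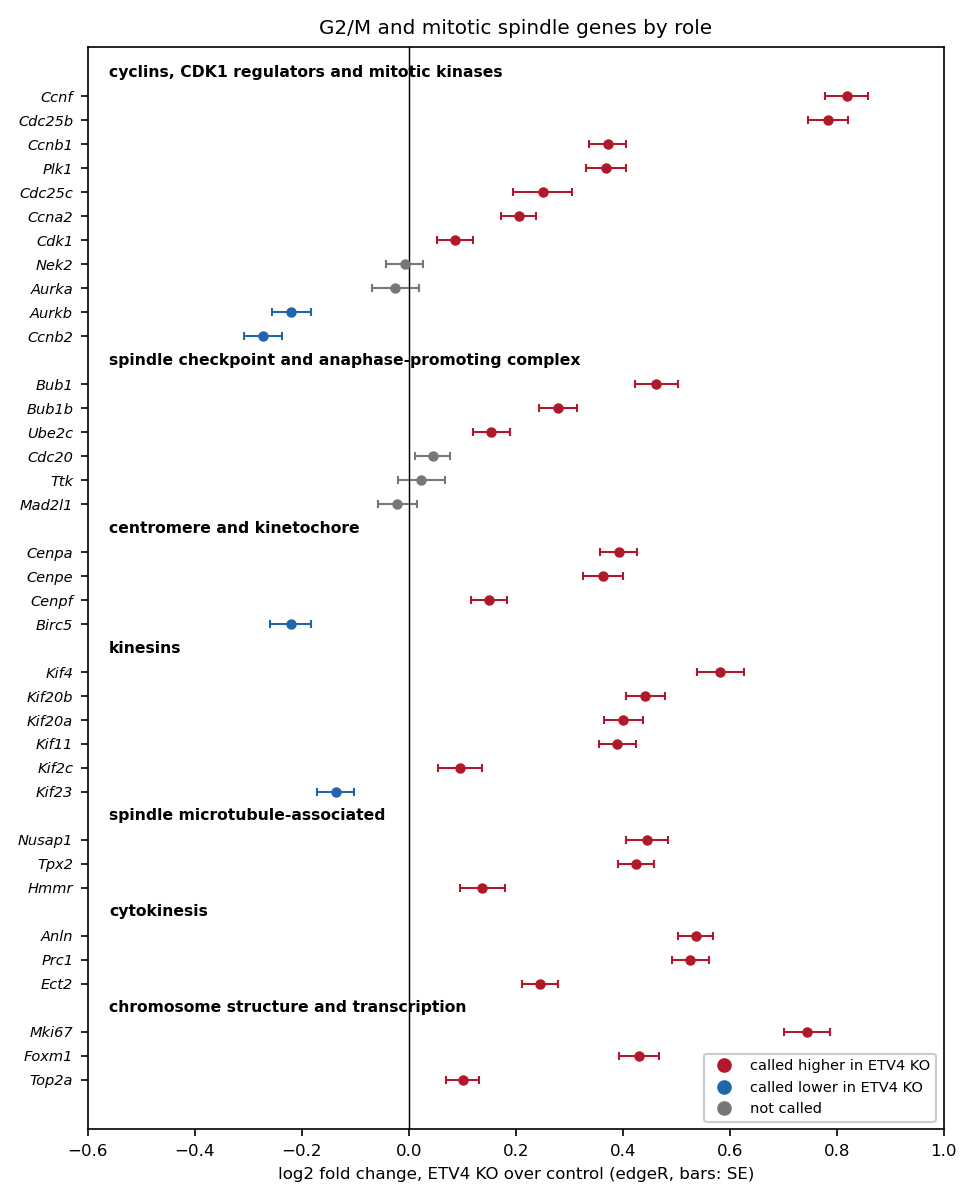
Log2 fold change of the 36 genes in ETV4 KO over control samples (x axis, edgeR; bars are SEs, n = 3 per group), grouped by role, with colour for the call at an adjusted p under 0.05. The 27 called rises reach 0.82 (Ccnf), the 4 called falls reach -0.27 (Ccnb2), and each of the 7 roles holds at least 3 called rises.

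Among the cyclins, CDK1 regulators and mitotic kinases 7 of 11 rose, 2 fell and 2 did not pass. Ccnf (chromosome 17, 24222198 to 24251484 in mm10) encodes cyclin F, the substrate-binding subunit of an SCF ubiquitin ligase. It had 130.2, 128.4 and 121.8 CPM in ETV4 KO samples and 75.4, 69.8 and 70.7 CPM in control samples. The ranges were far apart, and the log2 fold change was 0.82 (edgeR SE 0.040, adjusted p = 2.74e-17). Cdc25b (chromosome 2, 131186949 to 131198497), the phosphatase that starts CDK1 activation, had 132.1, 137.4 and 136.0 CPM in ETV4 KO samples and 80.6, 76.6 and 78.4 CPM in control samples. Every ETV4 KO library lay above every control library, with a log2 fold change of 0.78 (edgeR SE 0.037, adjusted p = 1.31e-17). Its relative Cdc25c (chromosome 18) had the lowest level of the 36 genes and rose by 0.25 (SE 0.055), with 28.6 to 30.8 CPM in ETV4 KO samples and 25.1 to 25.4 CPM in control samples.

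The B-type cyclins, the main partners of CDK1 at mitotic entry, moved in opposite directions. Ccnb1 (chromosome 13, 100778650 to 100786570) had 179.8, 178.4 and 182.2 CPM in ETV4 KO samples and 141.6, 135.4 and 140.9 CPM in control samples, a log2 fold change of 0.37 (edgeR SE 0.034, adjusted p = 5.82e-11). Ccnb2 (chromosome 9, 70407692 to 70421547) had 125.0, 127.7 and 126.9 CPM in ETV4 KO samples and 150.1, 151.3 and 157.1 CPM in control samples, a log2 fold change of -0.27 (edgeR SE 0.035, adjusted p = 4.45e-08). Neither gene's groups overlapped. The ratio of Ccnb1 to Ccnb2 counts within a library, which no scaling of libraries can alter, was 1.44, 1.40 and 1.43 in ETV4 KO samples and 0.943, 0.895 and 0.897 in control samples. Its means were 1.42 ± 0.024 and 0.911 ± 0.027 (SD, n = 3 each), and the two-sided exact permutation p was 0.1, the smallest that 3 against 3 samples allow. Since neither gene's groups overlapped and the directions were opposite, this outcome was fixed in advance, so the p-value adds no support. Ccna2, the A-type cyclin of S phase and G2, had 234.4 to 244.6 CPM in ETV4 KO samples and 203.6 to 214.0 CPM in control samples and rose by 0.21 (SE 0.033). Cdk1 itself had 193.7 to 206.0 CPM in ETV4 KO samples and 184.3 to 191.9 CPM in control samples, with a log2 fold change of 0.09 (edgeR SE 0.034, adjusted p = 0.0252). That call was lost without control replicate 1 (adjusted p = 0.107), control replicate 2 (0.0524), ETV4 KO replicate 1 (0.118) or ETV4 KO replicate 3 (0.0623), with library size only (0.366) and with upper-quartile factors (0.201).

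The mitotic kinases differed among themselves. Plk1, the Polo-like kinase of mitotic entry and centrosome maturation, had 138.4, 145.3 and 140.7 CPM in ETV4 KO samples and 113.9, 105.4 and 109.5 CPM in control samples and rose by 0.37 (edgeR SE 0.037, adjusted p = 4.25e-10). Aurka, the centrosomal Aurora kinase, had 67.5, 75.9 and 71.8 CPM in ETV4 KO samples and 72.7, 71.3 and 74.7 CPM in control samples; the groups overlapped, and the log2 fold change was -0.02 (edgeR SE 0.043, adjusted p = 0.621). The count ratio of Plk1 to Aurka was 1.91 to 2.05 in ETV4 KO libraries and 1.47 to 1.57 in control libraries. Aurkb (chromosome 11, 69045647 to 69051664), the Aurora kinase of the chromosomal passenger complex, fell, with 86.9, 86.8 and 87.1 CPM in ETV4 KO samples and 98.7, 101.4 and 103.6 CPM in control samples and a log2 fold change of -0.22 (edgeR SE 0.037, adjusted p = 5.24e-06). Nek2, a centrosome-separating kinase, had 120.5 to 124.4 CPM in ETV4 KO samples and 121.2 to 124.6 CPM in control samples, a log2 fold change of -0.01 (edgeR SE 0.035, adjusted p = 0.858).

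**Figure D2:**
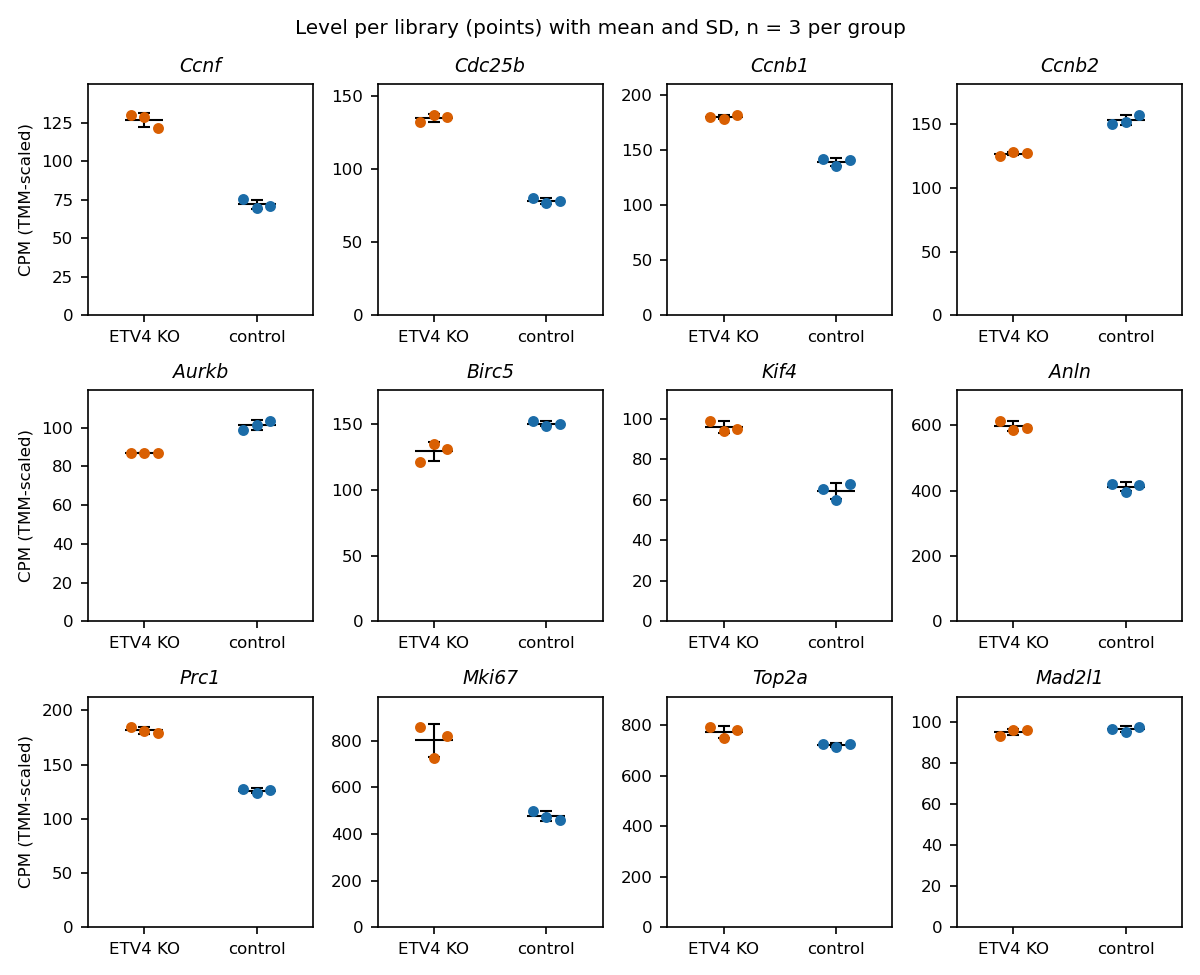
Level of 12 of the 36 genes in each library (y axis, TMM-scaled CPM from 0; points are libraries, bars the mean and SD of 3). ETV4 KO libraries lie above control libraries for Ccnf, Cdc25b, Ccnb1, Kif4, Anln, Prc1, Mki67 and Top2a, below them for Ccnb2, Aurkb and Birc5, and among them for Mad2l1.

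Genes of the spindle checkpoint and the anaphase-promoting complex divided evenly, with 3 of 6 higher and 3 not passing. The share called was 50%, against 71.1% of all tested genes. Relative to the medians of their bins all 6 were called higher, so that the even division was lost. Bub1 (chromosome 2, 127801122 to 127831865), the kinase that places checkpoint proteins on the kinetochore, had 90.3, 86.4 and 84.7 CPM in ETV4 KO samples and 63.2, 62.5 and 64.3 CPM in control samples, a log2 fold change of 0.46 (edgeR SE 0.040, adjusted p = 1.91e-11). Its relative Bub1b, which encodes the checkpoint inhibitor BUBR1, rose by 0.28 (SE 0.035), and Ube2c, the ubiquitin-conjugating enzyme of the anaphase-promoting complex, by 0.15 (SE 0.035); neither gene's groups overlapped. Mad2l1, which encodes the checkpoint protein MAD2, had 93.5 to 96.3 CPM in ETV4 KO samples and 95.3 to 97.9 CPM in control samples, a log2 fold change of -0.02 (edgeR SE 0.037, adjusted p = 0.616). Ttk, the checkpoint kinase MPS1, had 58.2 to 59.9 CPM in ETV4 KO samples and 55.5 to 60.4 CPM in control samples, a log2 fold change of 0.02 (edgeR SE 0.044, adjusted p = 0.637). The third of these, Cdc20, an activator of the anaphase-promoting complex that the checkpoint restrains, had 188.4 to 194.8 CPM in ETV4 KO samples and 181.3 to 187.9 CPM in control samples, so that its groups did not overlap although the log2 fold change of 0.04 (edgeR SE 0.033, adjusted p = 0.227) did not pass. The Bub1 to Mad2l1 count ratio was 0.966, 0.898 and 0.882 in ETV4 KO libraries and 0.652, 0.655 and 0.657 in control libraries. The median log2 fold change was 0.17 in the bin of Bub1 and -0.16 for Mad2l1, where the chromosome's median was used. Relative to these medians Bub1 had 0.29 and Mad2l1 0.14.

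At the centromere 3 of 4 genes rose and 1 fell. Cenpa (chromosome 5, 30666777 to 30674830), the histone H3 variant that marks centromeres, had 227.5, 235.9 and 218.8 CPM in ETV4 KO samples and 171.4, 176.4 and 171.9 CPM in control samples, a log2 fold change of 0.39 (edgeR SE 0.034, adjusted p = 2.23e-11). Cenpe, a kinetochore kinesin that carries chromosomes to the metaphase plate, rose by 0.36 (SE 0.037), with 178.7 to 190.7 CPM in ETV4 KO samples and 137.0 to 150.5 CPM in control samples. Cenpf, a large protein of the outer kinetochore, rose by 0.15 (SE 0.033). Birc5 (chromosome 11, 117849251 to 117855743), which encodes survivin, a partner of Aurora B in the chromosomal passenger complex, had 121.6, 135.3 and 130.8 CPM in ETV4 KO samples and 152.7, 148.4 and 150.4 CPM in control samples. All 3 ETV4 KO values were below the control values, and the log2 fold change was -0.22 (edgeR SE 0.038, adjusted p = 6.91e-06). Of the other subunits of that complex, which are not among the 36 genes, Incenp, its scaffold, rose by 0.26 (edgeR SE 0.032, adjusted p = 1.68e-08), and Cdca8, which encodes borealin, had a log2 fold change of 0.05 (edgeR SE 0.038, adjusted p = 0.249); both were named after their values were seen. Relative to their 10 Mb bins all 4 genes were called higher, with 0.14 for Aurkb, 0.27 for Birc5, 0.16 for Incenp and 0.29 for Cdca8, so that the difference in direction within the complex was lost.

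Of the 6 kinesins 5 rose and 1 fell. Kif4 (chromosome X, 100625737 to 100727214), a chromokinesin that works with PRC1 at the midzone, had 99.0, 93.8 and 94.7 CPM in ETV4 KO samples and 65.0, 59.8 and 67.5 CPM in control samples, a log2 fold change of 0.58 (edgeR SE 0.043, adjusted p = 5.56e-13). Kif20b, a kinesin of late cytokinesis, rose by 0.44 (SE 0.037), Kif20a, which relocates the passenger complex to the midzone, by 0.40 (SE 0.037) and Kif11, the motor that pushes spindle poles apart, by 0.39 (SE 0.034). Kif2c, a microtubule-depolymerising kinesin, had 75.9 to 78.6 CPM in ETV4 KO samples and 70.0 to 75.4 CPM in control samples, with a log2 fold change of 0.10 (edgeR SE 0.041, adjusted p = 0.0366). This call was lost with upper-quartile factors (adjusted p = 0.199), library size only (0.332) and a CPM filter (0.0501), without control replicate 1 (adjusted p = 0.0988), control replicate 2 (0.169) or ETV4 KO replicate 3 (0.12), and in DESeq2 (0.0828). Kif23 (chromosome 9, 61915905 to 61946774), the motor subunit of centralspindlin, had 166.0, 165.2 and 170.3 CPM in ETV4 KO samples and 189.2, 176.5 and 185.7 CPM in control samples. Its log2 fold change was -0.14 (edgeR SE 0.035, adjusted p = 0.000909), opposite in sign to that of Kif20a, which also acts at the midzone. Relative to their 10 Mb bins Kif23 had 0.01 and was not called, and Kif20a had 0.25 and was called higher. The count ratio of Kif20a to Kif23 was 0.656 to 0.677 in ETV4 KO libraries and 0.449 to 0.471 in control libraries.

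The 3 spindle microtubule-associated genes and the 3 cytokinesis genes were each called higher. Tpx2, which activates Aurora A and nucleates spindle microtubules, had 274.9, 282.6 and 274.4 CPM in ETV4 KO samples and 215.8, 199.1 and 205.1 CPM in control samples, a log2 fold change of 0.42 (edgeR SE 0.034, adjusted p = 3.39e-12). Aurka, the kinase that it activates, did not pass the test, but relative to their 10 Mb bins both were called higher, Tpx2 with 0.25 and Aurka with 0.16. Nusap1, a microtubule bundler, rose by 0.45 (SE 0.039). Hmmr, a spindle-assembly protein also known as a hyaluronan receptor, rose by 0.14 (edgeR SE 0.043, adjusted p = 0.00524), a call lost without ETV4 KO replicate 1 (adjusted p = 0.0779) and with library size only (0.0752). Anln (chromosome 9, 22332012 to 22389188), the anillin scaffold of the contractile ring, had 613.6, 583.8 and 592.5 CPM in ETV4 KO samples and 420.7, 396.0 and 417.7 CPM in control samples, a log2 fold change of 0.54 (edgeR SE 0.032, adjusted p = 5.21e-15). Prc1 (chromosome 7, 80294450 to 80316259), the bundler of midzone microtubules, had 185.0, 181.0 and 178.9 CPM in ETV4 KO samples and 127.9, 124.1 and 126.4 CPM in control samples, a log2 fold change of 0.53 (edgeR SE 0.034, adjusted p = 2.37e-14). Both genes' libraries were well separated by group. Ect2, the exchange factor that activates RhoA for furrowing, rose by 0.25 (SE 0.034), with 192.9 to 201.3 CPM in ETV4 KO samples and 162.7 to 171.4 CPM in control samples.

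The proliferation marker Mki67 (chromosome 7, 135689784 to 135716361), whose protein coats mitotic chromosomes, had 859.8, 724.5 and 818.2 CPM in ETV4 KO samples and 500.2, 473.4 and 460.5 CPM in control samples. Its log2 fold change was 0.74 (edgeR SE 0.042, adjusted p = 1.21e-15), and ETV4 KO replicate 2 was the lowest of its group but above every control. Foxm1, the transcription factor that joins MuvB on G2/M promoters, had 204.4, 185.6 and 189.8 CPM in ETV4 KO samples and 147.0, 142.2 and 141.2 CPM in control samples, a rise of 0.43 (edgeR SE 0.037, adjusted p = 1.53e-11). Top2a, the topoisomerase that disentangles sister chromatids, had 794.5, 748.4 and 779.8 CPM in ETV4 KO samples and 725.7, 713.3 and 726.5 CPM in control samples. It rose by 0.10 (edgeR SE 0.031, adjusted p = 0.00464), a call lost with library size only (0.147) and with upper-quartile factors (0.068). Thus the markers Mki67 and Top2a, both used to count cycling cells, differed about 1.68-fold and 1.07-fold between the groups, and their log2 fold changes relative to their 10 Mb bins were 0.58 and 0.47.

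Levels can be set side by side between genes only per length, here as CPM per kilobase of annotated exon, which takes in exons that 4T1 cells may not use. By that measure Cdc20 had 102.3 in ETV4 KO and 99.2 in control samples, Top2a 85.9 and 80.1, Ccnb2 82.7 and 99.8, and Mki67 79.6 and 47.5. Cdc25c was the lowest, with 6.11 in ETV4 KO and 5.14 in control samples.

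Some of these genes share their locus with another. Kif20a overlaps Cdc23, Kif4 overlaps Pdzd11, Cdc20 overlaps Elovl1, Ccna2 overlaps Exosc9 and Nusap1 overlaps Oip5, in each case on the opposite strand, and the strand setting of the counting is not stated in the sources used here, so that reads of such pairs may have been shared. The partners had at most 1367, 801, 1820, 884 and 280 counts in a library, in the order given. Cdc25b and Prc1 overlap opposite-strand genes with at most 87 and 104 counts.

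Fold changes in this comparison shifted by chromosome, and the values of the 36 genes are set here beside those of their surroundings. How closely the genes followed their surroundings was not tested. The expressed genes of chromosome 11, which carries Aurkb, Birc5, Hmmr, Top2a and the targeted gene Etv4, had a median log2 fold change of -0.38. Those of chromosome 17, which carries Ccnf, had 0.37, and those of chromosome 2, which carries Cdc25b, Aurka, Bub1, Bub1b, Ube2c, Nusap1 and Tpx2, had 0.15. On chromosome 11 the pair that fell, Aurkb and Birc5, had -0.22 each in bins with medians of -0.36 and -0.49, and Hmmr and Top2a had 0.14 and 0.10 in bins with -0.34 and -0.37. Of the 36 genes 34 (94.4%) lay above the median of their 10 Mb bin (other expressed genes), against 47.6% of the 11951 tested genes with such a median; the exceptions were Ccnb2 and Nek2.

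The comparison was repeated with the median of each gene's bin subtracted within the model from the ETV4 KO side. By this measure 32 of the 36 genes were called higher and 2 lower, while over all tested genes 30.5% were called higher, 34.2% lower and 64.8% in either direction. Aurkb had 0.14 (edgeR adjusted p = 0.00115) and Birc5 0.27 (adjusted p = 3.27e-07), both now above their neighbours, and Kif23 had 0.01 (adjusted p = 0.784). Among the genes that had not passed, Ttk had 0.35, Cdc20 0.21, Aurka 0.16 and Mad2l1 0.14, each called higher, and Nek2 had -0.09 and was called lower. Cdc25c was no longer called (0.10, adjusted p = 0.104). Ccnb2 remained lower at -0.16 and Ccnb1 higher at 0.19 by this measure. The highest values were those of Kif4 (0.65), Anln (0.62), Foxm1 (0.61) and Mki67 (0.58), and Top2a had 0.47. These p-values treat the bin median as free of error and do not count how far neighbouring genes scatter about it.

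**Figure D3:**
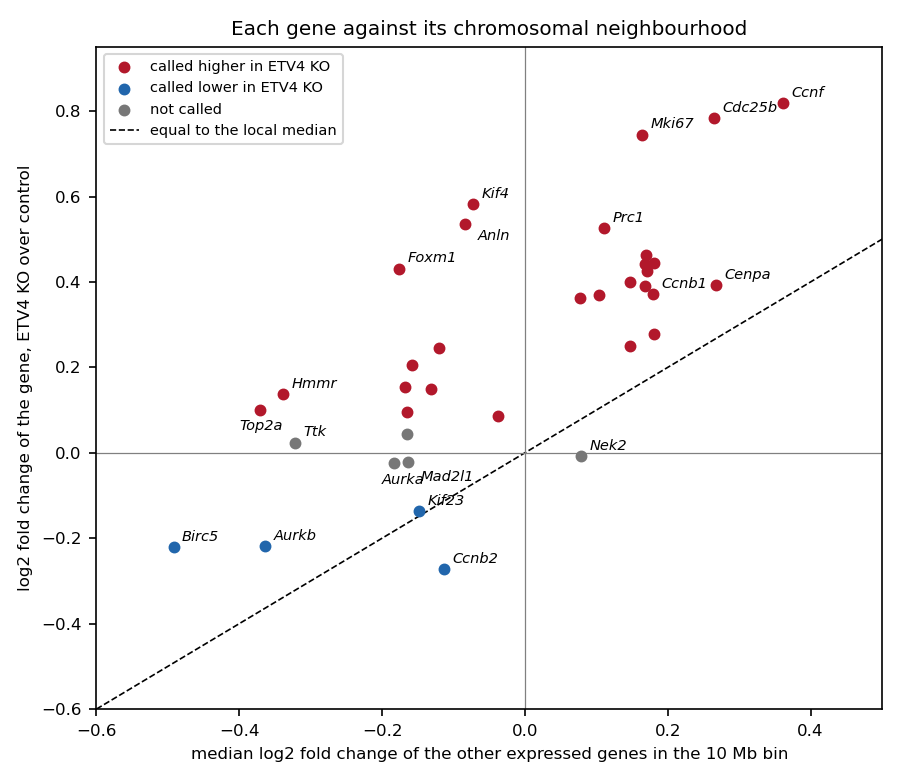
Log2 fold change of each of the 36 genes (y axis) against the median log2 fold change of the other expressed genes in its 10 Mb bin (x axis; the chromosome's median for Mad2l1 and Ect2), with the line of equality dashed. 34 points lie above the line; Ccnb2 and Nek2 lie below it.

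Other genes of the pathway, in 6 lists that share no gene with the 36, were also more often called higher than lower. Together 65 of 104 tested genes (62.5%) rose and 20 fell, with a median log2 fold change of 0.20; with the bin medians taken out 54 were called higher and 13 lower. Among the other CDK1 regulators and kinases 10 of 15 rose and 2 fell. The inhibitory kinases Wee1 and Pkmyt1, which hold CDK1 off, rose by 0.38 and 0.39, beside Gtse1, a microtubule-binding protein of G2, at 0.42, while the CDK-binding protein Cks1b had -0.21 and Nek7 had -0.25. Relative to their bins Pkmyt1 (0.03) and Cks1b (0.01) were not called, Wee1 (0.16) and Gtse1 (0.38) were higher, and Nek7 remained lower (-0.23).

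Of 22 other checkpoint, anaphase-promoting complex and cohesion genes 13 rose and 8 fell. Mad1l1, the partner of MAD2, had 127.8 CPM ± 0.387 in ETV4 KO samples and 65.3 CPM ± 2.01 in control samples (SD, n = 3 each), and its log2 fold change was 0.97 (edgeR SE 0.038, adjusted p = 1.01e-19). Knl1, the kinetochore platform for BUB1, rose by 0.81 and the complex subunit Anapc1 by 0.58, whereas securin (Pttg1) and the subunit Cdc27, both on chromosome 11, had -0.39 and -0.29. Relative to its bin Cdc27 was called higher, at 0.18, and Pttg1 was not called, at -0.07. In the list of other centromere and kinetochore genes 16 of 31 rose, 4 fell and 11 did not pass; Ndc80 and Cenpc1 rose by 0.48 and 0.46, and Ska2 and Mis12, both on chromosome 11, had -0.41 and -0.23. Relative to their bins Mis12 was called higher (0.18), and Ndc80, on chromosome 17, and Ska2 were not called (0.06 and -0.10).

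Further kinesins and spindle genes were higher in 12 and lower in 3 of 17. Kif18a, a kinesin that dampens chromosome oscillation, rose by 0.86, Ckap2l by 0.62 and the microtubule polymerase Ckap5 by 0.43; Kif18b and Spag5, both on chromosome 11, had -0.38 and -0.39 and were not called relative to their bins (0.08 and 0.03). For cytokinesis 6 of 8 genes rose and 1 fell. Racgap1, the partner of Kif23 in centralspindlin, rose by 0.51 (edgeR SE 0.031, adjusted p = 7.88e-15), and relative to its bin by 0.37; the citron kinase gene Cit rose by 0.42, Arhgap11a by 0.40, and the centrobin gene Cntrob fell to 22.5 CPM in ETV4 KO samples, against 44.0 CPM in control samples (means, n = 3 each), a log2 fold change of -0.97 that was -0.60 relative to its bin. Among condensin and chromosome condensation genes 8 of 11 rose and 2 fell. Cdca2, Ncapg2 and Ncapg had 0.57, 0.51 and 0.39, and Ncapd3 and Hmgb2 had -0.36 and -0.22. Against their bins Cdca2 (0.41) and Ncapg2 (0.22) were called higher and Ncapg was not called (0.03). Ncapd3 (-0.29) and Hmgb2 (-0.11) remained lower by that measure.

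Genes listed with the complexes that read CCAAT and CHR elements went both ways. Of 17 genes of DREAM, MuvB, B-Myb and NF-Y or related to them, 6 rose, 4 fell and 7 did not pass, with a median log2 fold change of 0.07. Thus 35.3% rose and 58.8% were called in either direction, against 35% and 71.1% of all tested genes. Relative to their bins 8 of the 17 were called higher and 2 lower. The CHR-binding subunit Lin54 had 68.6 CPM in ETV4 KO samples and 39.7 CPM in control samples (means, n = 3 each), a rise of 0.79 (edgeR SE 0.045, adjusted p = 1e-15), and the NF-Y subunit Nfya rose by 0.53 and the repressor E2f7 by 0.33. E2f5 and Tfdp2 had -0.41 and -0.38 and were not called relative to their bins (-0.09 and -0.05). Of 11 CDK inhibitor and growth arrest genes 8 were tested, of which 4 rose and 4 fell, and 2 of them fell without ETV4 KO replicate 3 or in DESeq2. Cdkn1b, which encodes the inhibitor p27, fell by 0.36 (edgeR SE 0.034, adjusted p = 7.29e-11), and Cdkn2d and Cdkn2c, inhibitors of CDK4 and CDK6, rose by 0.41 and 0.18. The antiproliferative gene Btg2 rose by 0.36, and the stress gene Gadd45a had -0.24. Against their bins Cdkn1b remained lower (-0.32), and Cdkn2d (0.49), Cdkn2c (0.30) and Btg2 (0.38) remained higher. Gadd45a was not called by that measure (-0.08). Cdkn2a and Cdkn2b had 0 counts over the 6 libraries and Cdkn1c had 3.

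Genes of G1/S and DNA replication, which act earlier in the cycle, were called higher in 36 cases and lower in 12 of 55. Their median was 0.20, beside 0.26 for the 36 G2/M and spindle genes. With the bin medians taken out 30 of the 55 were called higher and 10 lower, and the medians were 0.11 and 0.27. The difference between the lists was not tested on either scale. Pola1, the catalytic subunit of DNA polymerase alpha, rose by 0.95, the ribonucleotide reductase subunit Rrm2 by 0.83 and Dbf4, the activator of the CDC7 kinase, by 0.62. Tk1 and Rpa1, both on chromosome 11, had -0.36 and -0.35; relative to their bins Tk1 was called higher (0.14) and Rpa1 was not called (0.06).

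**Figure D4:**
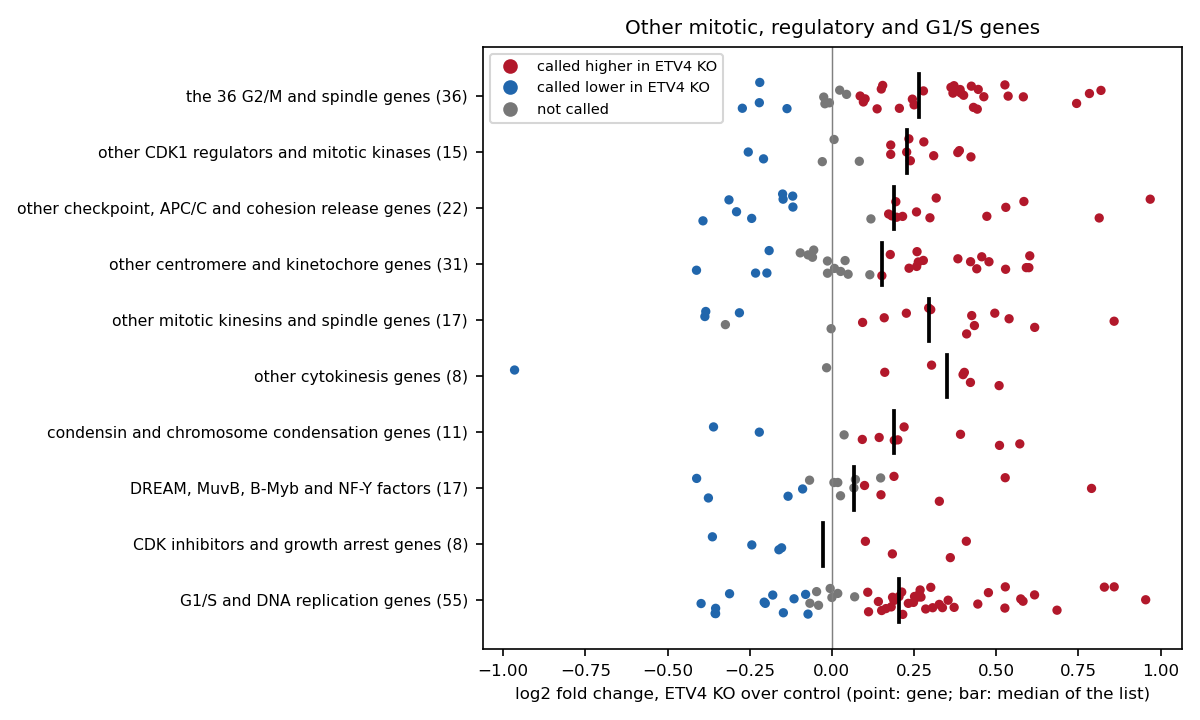
Log2 fold change in ETV4 KO over control samples (x axis, edgeR) of the 36 G2/M and spindle genes and of 9 lists of other cell cycle genes; each point is a tested gene, its colour the call, and the black bar the median of the list. Medians lie between -0.03 (CDK inhibitors and growth arrest genes) and 0.35 (other cytokinesis genes), and every list holds genes called in both directions.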

How the data were processed

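Raw read counts for 6 samples stood in 1 deposited table with gene symbols; that they are unnormalized was taken from the values. Of the tools and builds named in the submitters' processing notes, FastQC was version 0.11.9, STAR 2.7.9a and R 4.1.1; featureCounts, hg38 and mm10 are named too. The annotation, the strand setting and the handling of multi-mapping reads are not stated in the sources used here. Samples were grouped by title.

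The counts were tested with edgeR 4.0.16 in R 4.3.3 by its quasi-likelihood test (glmQLFit, glmQLFTest) between the groups, after filterByExpr (at least 10 counts, 15 in total) and TMM scaling, with Benjamini-Hochberg adjustment over 12076 genes. Log2 fold changes are ETV4 KO over control; dividing their absolute value by the square root of F gave the SE. CPM is TMM-scaled. GENCODE M21 (GRCm38, the same assembly as mm10) gave positions and exon lengths, matched on symbols. Bin medians used genes with an edgeR log2 CPM above 3, at least 10 per 10 Mb bin, or else those of the chromosome. RefSeq (GRCm38.p6) gave the promoter windows. Where a gene had more than 1, as Prc1 and Ect2 had with 2 each, only the first listed was searched. The steps were tested on simulated counts.

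The genes, lists, tests and alternatives were chosen with earlier results of these data known. Per-sample values are given for called genes with an absolute log2 fold change of at least 0.5 and for the gene with the smallest adjusted p of each role; other genes given per sample were chosen after their values were seen. Of each further list up to 3 called genes of the majority direction and 2 of the other are named, by smallest adjusted p. A gene that this rule names is not reported here.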

Additional observations from a re-analysis of the deposited data

How the results depend on the processing

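Under 15 of 17 alternatives (other size factors, other filters, DESeq2 1.42.0, limma-voom with limma 3.58.1, a replicate block, each sample left out, an adjusted p under 0.01) 23 to 27 of the 36 genes were called higher and 4 lower. In all 15, 27 of the 31 calls were kept; the exceptions were Cdk1, Kif2c, Hmmr and Top2a. The median log2 fold change of the 36 was 0.26, against 0.23 for upper-quartile factors and 0.21 for library size alone. Against a fold change of 1.5, a stricter test by construction, glmTreat called 3 of the 36 higher and 0 lower, 7 and 1 of the genes in the 9 other lists, and 735 and 949 of all genes. With 10 Mb bin medians as an offset 2 of the 36 were called lower, and the sign changed for Aurka (0.16), Aurkb (0.14), Mad2l1 (0.14), Birc5 (0.27) and Kif23 (0.0117); the cause was not tested. With the replicate block 27 were called higher and 4 lower, and no call among the 36 changed. Deviations of same-numbered samples correlated at 0.071, 0.0705 and 0.0186, and those of the other pairs at -0.0863 to 0.0199. ETV4 KO replicates 1 and 2 correlated best with the control of their own number, and ETV4 KO replicate 3 with control replicate 1 (0.0199). The labels name no pairs, so the main test did not use the numbers, and whether they mark pairs is unknown. Each of the 36 genes had at least 576 counts in every library.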

Other observations

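Exon length moved with the differences to a small extent. Among expressed genes the median log2 fold change in ETV4 KO over control samples was -0.03 for the 1794 genes with up to 2766 annotated exon bases and 0.06 for the 1793 genes with at least 8114. Of the 36 G2/M and spindle genes the 17 with more than 4919 exon bases had a median of 0.39, and the 19 with up to 4919 bases had 0.21. Across these 36 genes, which share the 6 libraries, Spearman's rho between exon length and log2 fold change was 0.325. The part of length in the differences was not tested.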
